A study of Drosophila melanogaster with 24 samples.

Results

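The genes described here are the cytosolic ribosomal protein genes of Drosophila melanogaster, taken as every gene whose symbol starts with RpL or RpS in the annotation of the arrays. There were 41 of them among the 11982 genes measured, 22 named for the large subunit, 16 for the small subunit and 3 (RpLP0, RpLP1 and RpLP2) for the stalk of the large subunit. A RefSeq gene table lists 92 genes with such symbols, so 51 are not analysed here, among them RpS6, RpS3 and RpS3A. Each gene is represented by the probe set with its highest mean. The discs came from female and male animals at 3 stages, late third-instar wandering larvae (L3), prepupae staged by the air bubble of the puparium at its largest, near 6 h after puparium formation (P6), and pupae staged by the first GFP in the eye disc, near 20 h (P20). Every animal carried esgGAL4.B, UAS-GFP.nls/CyO, so all 6 groups share the GAL4 driver, the nuclear GFP and the balancer chromosome, and none lacks them. All 6 groups had 4 biological replicates with 1 array each (n = 4 throughout), with rearing at 25 C.

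Ribosomal proteins assemble with ribosomal RNA in the nucleolus into the small subunit, which decodes the messenger, and the large subunit, which joins amino acids. Most are needed in equal numbers in every cell, and in the fly the loss of a single copy of many of their genes gives the Minute phenotype of slow growth and short bristles. Some fly genes have a second copy elsewhere in the genome that is known mainly from the gonads, and some genes with "-like" in their names are related to factors that assemble ribosomes without staying in them. Imaginal discs such as the genital disc grow in the larva and differentiate in the pupa.

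The 24 arrays carried the disc markers cad, en, ci, dsx, hh and esg, with group means of 8.46 to 11.27 log2 units. Of 11 listed disc genes, 10 had a probe set, and the rest of these fell below that range in some groups. Group means of Dll went down to 7.37. The gene lz had 3.52 to 4.65 in males and 9.31 to 10.68 in females. Dr had 4.48 to 6.37 in females and 10.34 to 11.04 in males, and Poxn had 3.79 to 4.84 and 7.12 to 9.09. Some markers of other tissues were high as well, but the markers of a tissue did not all behave alike. The larval serum protein gene Lsp2 of the fat body had group means of 11.91 to 12.87. Fbp1 and Fbp2 of the same list were also high, while Yp1, Yp2 and Yp3 were low in every group. The hemocyte gene eater averaged 8.78 in L3 females and 9.14 in L3 males, with 4.37 to 4.78 at the later stages. Group means of Hml, Pxn and NimC1 were also lower at both later stages, while those of srp were higher at P20 than at L3 in both sexes. The share of other tissues in the RNA was not tested. Some testis and germline markers were high in some male arrays, while others, vas among them, were low in every group. Replicates correlated at 0.964 to 0.994. The first L3 replicate of each sex stood apart from the other 3 and shared its deviations with the other sex (r = 0.679 over all genes), so each member's differences from L3 that passed are given with these arrays and without them, an alternative chosen after the values were seen. In whole discs, fewer cells of a type and less RNA per cell cannot be told apart.

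The 41 genes fell into 32 bright probe sets, with means over the 24 arrays of 12.28 to 13.95 log2 units, and 9 dimmer ones with means of 3.73 to 10.46, a split at 12 that was chosen after the values were seen. All 26 members without a named copy were bright. The 9 dimmer members all have a copy or a "-like" symbol, and they are RpLP0-like, RpL22-like, RpS19b, RpL10Aa, RpS28-like, RpS5b, RpS10a, RpL37-2 and RpS28a. The other 6 such genes, RpL10Ab, RpL24-like, RpL7-like, RpL34a, RpL37-1 and RpS28b, were bright. The brightness of different probe sets does not rank their RNA amounts.

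The bright members barely moved on the probe sets used. The highest of the 6 group means exceeded the lowest by 0.04 to 0.36 log2 units, with a median of 0.14, and 27 of the 32 stayed under 0.25. The median over all genes was 0.65, and over the 184 other genes with a mean above 12 it was 0.40. The narrowest ranges were those of the small-subunit genes RpS21 (0.04) and RpS15 (0.06) and the large-subunit genes RpL27 (0.05) and RpL23 (0.06). RpS21 lay between 13.63 and 13.80 on all 24 arrays. Among the 9 dimmer members the range was 0.20 to 1.55, with a median of 0.83, and the widest 4 were RpLP0-like (1.55), RpL22-like (1.35), RpS19b (1.24) and RpL10Aa (1.03). The brightest probe set of any gene reached 14.06 to 14.51 on an array, and whether the upper end of the scale narrows the differences of the bright members was not tested.

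**Figure D1:**
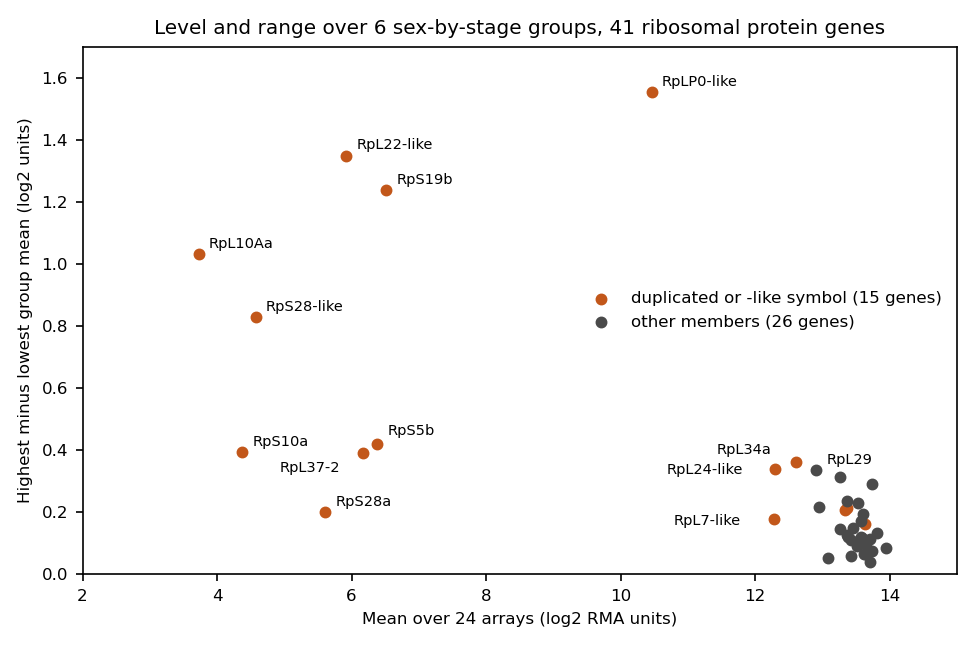
Mean over 24 arrays (x axis, log2 RMA units) against the highest minus the lowest of the 6 group means (y axis, log2 units), 1 point per gene; orange points are the 15 members with a copy or a "-like" symbol and grey points the other 26. The 32 bright members lie at or under 0.36, and RpLP0-like, RpL22-like, RpS19b and RpL10Aa lie above 1.

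Few members passed in the comparisons between stages, which ask how the discs change as metamorphosis proceeds. The threshold was a limma p-value under 0.05 after Benjamini-Hochberg adjustment across the 11982 genes. From L3 to P6 in females, 4 of 41 members passed, 2 higher and 2 lower at P6, or 9.76%, where 35.6% of all genes passed, 14.6% higher and 21% lower. In males 5 passed, 4 higher and 1 lower, or 12.2%, where 34.8% of all genes passed, 16.3% higher and 18.5% lower. From P6 to P20, 3 passed in females, 1 higher and 2 lower at P20, or 7.32%, against 26.3% of all genes, 14.2% higher and 12.1% lower. In males 2 passed, both lower, or 4.88%, against 25.7% of all genes, 13.1% higher and 12.6% lower. From L3 to P20, 6 passed in females, all lower at P20, or 14.6%, against 39.9% of all genes, 17.7% higher and 22.2% lower. In males 6 passed, 1 higher and 5 lower, or 14.6%, against 38.1% of all genes, 17.8% higher and 20.3% lower. Over all comparisons, 10 members passed at least once and 31 never did. In a fit with a trend of variance on level, 19 passed at least once. In that fit 25.8% to 40% of all genes passed between stages. All arrays of one stage lay beyond all arrays of the other for 25.7% to 32.4% of all genes, depending on the comparison.

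The median log2 difference of the 41 members was -0.05 for P6 minus L3, 0.00 for P20 minus P6 and -0.05 for P20 minus L3 in females, and -0.02, -0.02 and -0.05 in males. Over all genes these medians were -0.09, 0.05 and -0.03 in females, and -0.04, 0.01 and -0.02 in males. The 95% intervals of the 32 bright members' differences hold for the probe sets used, and dimmer probe sets of RpS29, RpL3, RpS30 and RpS7 went outside them. For P6 minus L3 the intervals reached from -0.54 to 0.52 in females and from -0.54 to 0.64 in males, for P20 minus P6 from -0.40 to 0.38 and from -0.52 to 0.38, and for P20 minus L3 from -0.48 to 0.42 and from -0.47 to 0.44. Of the 184 other genes with a mean above 12, 40.2%, 28.3% and 44.6% passed in the 3 female comparisons, in the same order, and 38.6%, 23.9% and 40.2% in the male ones, and these genes were not matched to the members in brightness.

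**Figure D2:**
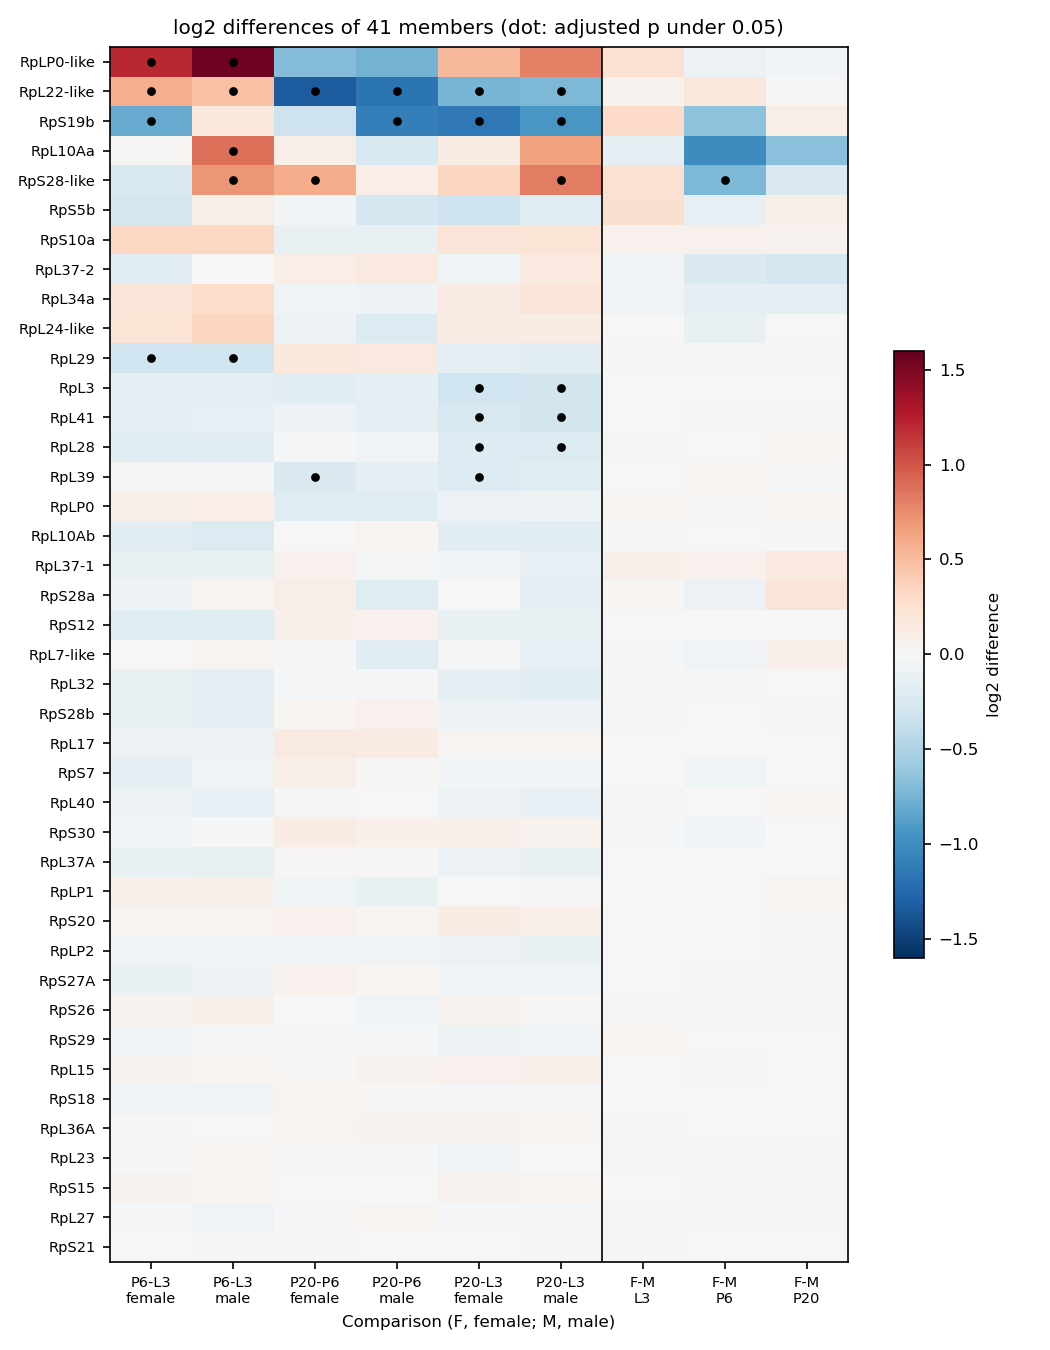
log2 differences (colour, red for higher at the later stage or in females, blue for lower) of the 41 members, ordered down the page by the range of their group means, in 6 stage comparisons, later minus earlier, and 3 sex comparisons, female minus male; a dot marks an adjusted p under 0.05. The strong colours and most dots lie in the 5 uppermost genes, and the rows below RpL39 hold none.

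RpL22-like, a copy of the gene of large-subunit protein L22, rose at P6 and fell at P20 in both sexes. In females it stood at 5.61, 6.09, 6.33 and 6.03 log2 units at L3, at 6.73, 6.54, 6.68 and 6.46 at P6 while the P20 arrays had 5.23, 5.38, 4.87 and 5.61 (replicates 1 to 4). In males it stood at 5.98, 5.92, 5.94 and 6.02 at L3, at 6.32, 6.34, 6.57 and 6.47 at P6 while the P20 arrays had 5.09, 5.06, 5.40 and 5.45. Every P6 array was above, and every P20 array at or below, all L3 arrays of its sex. The P6 minus L3 difference was 0.59 ± 0.15 in females (SE, limma adjusted p = 0.00346) and 0.46 ± 0.15 in males (adjusted p = 0.0188). P20 minus P6 was -1.33 in females (adjusted p = 3.14e-07) and -1.18 in males (adjusted p = 2.02e-06), and P20 minus L3 was -0.74 (adjusted p = 0.000418) and -0.71 (adjusted p = 0.000692). Without both L3 replicate 1 arrays, P6 minus L3 was 0.45 (adjusted p = 0.0151) and 0.47 (adjusted p = 0.0124), and P20 minus L3 was -0.88 and -0.71, both past the threshold. The male P6 minus L3 call was lost with arrays centred on their medians (0.33, adjusted p = 0.121) and without P6 male replicate 3 (0.41, adjusted p = 0.0599). RpL22-like lay between 4.87 and 6.73 on all arrays, where the array medians over all genes were 6.50 to 6.96. The height of its values over background is unknown. RpL22 itself is not analysed here.

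RpS19b, a copy of the gene of small-subunit protein S19 known from the germline, fell by P20 in both sexes. The female values were 6.74, 7.10, 7.16 and 7.46 at L3, 6.69, 5.89, 6.08 and 6.60 at P6, while P20 discs had 5.54, 5.72, 6.64 and 6.00. The male values were 6.19, 7.25, 6.62 and 7.16 at L3, 6.85, 7.04, 7.08 and 6.93 at P6, and 5.22, 6.07, 6.36 and 5.86 at P20. In females all 4 P6 arrays were below the L3 arrays, while in males the P6 arrays lay within the L3 range and above every female P6 array. P6 minus L3 was -0.80 ± 0.27 in females (adjusted p = 0.0226) and 0.17 ± 0.27 in males (adjusted p = 0.666), and the difference between these 2 changes did not pass (-0.97 ± 0.38, adjusted p = 0.404). P20 minus L3 was -1.14 in females (adjusted p = 0.00186) and -0.93 in males (adjusted p = 0.00928), and P20 minus P6 was -0.34 in females (adjusted p = 0.419) and -1.10 in males (adjusted p = 0.0037). The female P6 minus L3 call was lost without L3 female replicate 4 or without P6 female replicate 2 or 3, with adjusted p up to 0.0848. Without both L3 replicate 1 arrays, P6 minus L3 was -0.93 in females (adjusted p = 0.00754) and -0.04 in males (adjusted p = 0.927), where the male sign turned, and P20 minus L3 was -1.26 and -1.13, both past the threshold. RpS5b, another copy known from the germline, ranged from 5.86 to 6.91 and passed in no comparison over all arrays. Without the 2 arrays it passed in females, lower than at L3 both at P6 (-0.50, adjusted p = 0.0336) and at P20 (-0.55, adjusted p = 0.0199), against -0.28 and -0.33 with them.

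RpS28-like is named for its likeness to small-subunit protein S28. It passed from L3 to P6 and from L3 to P20 in males and from P6 to P20 in females. All RpS28-like values lay below the medians over all genes on the arrays (6.50 to 6.96), and their height over background is unknown. Its courses in the sexes were not shown to differ by the test over all 3 stages (adjusted p = 0.076). Female discs had 4.41, 4.50, 4.22 and 4.56 at L3, 4.27, 4.31, 4.06 and 4.05 at P6, and 4.84, 4.67, 4.67 and 4.89 at P20. Male discs had 4.34, 4.19, 3.95 and 4.24 at L3, 4.67, 5.42, 5.11 and 4.37 at P6, and 4.98, 4.92, 4.98 and 5.12 at P20. In males all P6 and P20 arrays were above the L3 arrays, while in females the P20 arrays alone were. P6 minus L3 was -0.25 ± 0.16 in females (adjusted p = 0.251) and 0.71 ± 0.16 in males (adjusted p = 0.00159). P20 minus P6 was 0.59 ± 0.16 in females (adjusted p = 0.00755) and 0.11 in males (adjusted p = 0.687), and P20 minus L3 was 0.35 in females (adjusted p = 0.0927) and 0.82 in males (adjusted p = 0.000399). Without both L3 replicate 1 arrays the male differences from L3 were 0.77 at P6 (adjusted p = 0.00145) and 0.87 at P20 (adjusted p = 0.000418), and with only the 2 groups compared the first did not pass (0.71, adjusted p = 0.0501). The copies RpS28a, between 5.18 and 5.89 on all arrays, and RpS28b, one of the 3 X-linked members, passed in no comparison, except that RpS28b was lower at P6 than at L3 in males with a trend of variance on level (-0.16, adjusted p = 0.02).

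**Figure D3:**
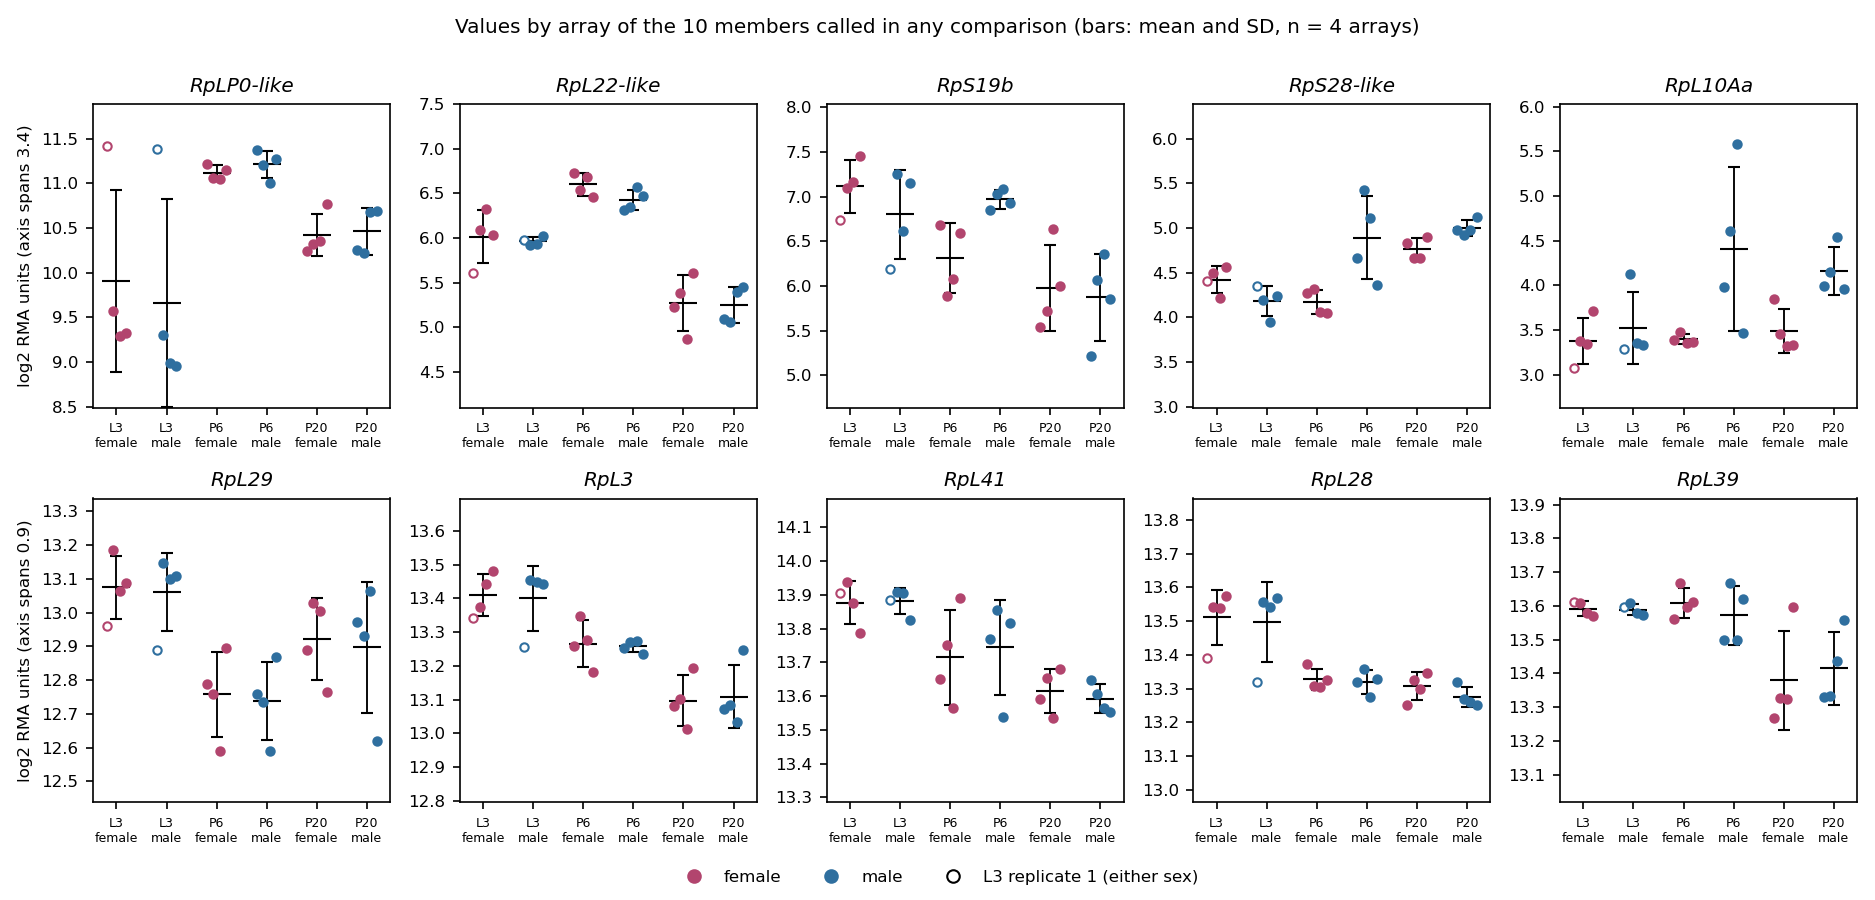
Values by array (y axis, log2 RMA units) of the 10 members that passed in any comparison, with female left of male at L3, P6 and P20; black bars are means with SD (n = 4) and open circles the L3 replicate 1 arrays. The axes span 3.4 units in the top row and 0.9 in the bottom row, and RpL22-like peaks at P6 in both sexes.

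RpLP0-like is related to the human assembly factor MRTO4, which holds the place of P0 on the immature large subunit. Female discs had 11.42, 9.58, 9.30 and 9.33 at L3, 11.22, 11.06, 11.05 and 11.15 at P6, and 10.24, 10.32, 10.35 and 10.77 at P20. Male discs had 11.38, 9.31, 8.99 and 8.95 at L3, 11.37, 11.20, 11.01 and 11.27 at P6, and 10.26, 10.22, 10.68 and 10.70 at P20. In each sex L3 replicate 1 was at or above every P6 array, and the other 3 L3 arrays were below every P6 and P20 array. P6 minus L3 was 1.21 ± 0.43 in females (adjusted p = 0.0304) and 1.55 ± 0.43 in males (adjusted p = 0.00728). Without both L3 replicate 1 arrays, P6 minus L3 was 1.72 ± 0.15 in females (adjusted p = 1.01e-08) and 2.13 ± 0.15 in males (adjusted p = 5.09e-10). P20 minus L3 was then 1.02 in females (adjusted p = 1.03e-05) and 1.38 in males (adjusted p = 2.75e-07), where it was 0.52 and 0.80 with the arrays kept and did not pass. P20 minus P6 was -0.70 in females (adjusted p = 0.000487) and -0.75 in males (adjusted p = 0.000241), with the same sizes but adjusted p of 0.265 and 0.217 when the arrays were kept. The female P6 minus L3 call was lost without L3 female replicate 2, 3 or 4 and without any P6 female array (adjusted p up to 0.103), and with only the 2 groups compared neither sex passed (adjusted p = 0.0592 and 0.0513).

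The 2 arrays also stood apart in other members. RpL24-like, related to the human assembly factor RSL24D1, had 12.54 in L3 female replicate 1 and 12.61 in L3 male replicate 1, with 11.87 to 12.20 on the other 6 L3 arrays. RpL34a, a copy of the gene of large-subunit protein L34, had 12.71 and 12.77 on the same arrays, with 12.26 to 12.48 on the others. In the opposite direction, RpS12, needed in flies to remove losing cells in cell competition, had 13.55 and 13.53, with 13.73 to 13.78 on the others. Replicate 1 was above its 3 fellow arrays in both sexes for 10 of 41 members (24.4%, where 21.2% of all genes were) and below them for 11 (26.8%, where 23.9% of all genes were). Of the 33 ribosome biogenesis genes described with the other lists, 13 (39.4%) were above in both sexes and 11 (33.3%) below. Surf6 had 10.69 and 10.40 there, with 9.18 to 10.02 on the other L3 arrays, and kz had 7.03 and 7.13, with 5.70 to 6.55. Nop56 was lower there, with 11.59 and 11.41, where the others had 11.99 to 12.18. The 5 hemocyte markers summed to 44.32 and 46.01, with 37.06 to 43.95 on the others, and the 2 of 5 muscle markers that were measured summed to 15.43 and 14.91, with 9.35 to 14.16 on the others. The part of these tissues in the values was not tested.

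Without both arrays, 10 members passed from L3 to P6 in each sex, 4 higher and 6 lower at P6 in females, and 5 higher and 5 lower in males, while 42.4% and 41.6% of all genes passed. From L3 to P20, 8 passed in females, 1 higher and 7 lower at P20, and 9 in males, 3 higher and 6 lower, while 45.3% and 43.7% of all genes passed. Over all comparisons 7 members were added, RpL10Ab, RpL24-like, RpL32, RpL34a, RpS12, RpS5b and RpS7, and RpL10Aa no longer passed. RpL24-like was then higher at P6 by 0.34 in females (adjusted p = 0.017) and 0.49 in males (adjusted p = 0.00124), against 0.22 and 0.34 with the arrays kept (adjusted p = 0.271 and 0.0742). RpL34a was higher by 0.31 in females (adjusted p = 0.0133) and 0.38 in males (adjusted p = 0.003), against 0.21 and 0.29 with the arrays kept. RpS12 was lower by 0.24 in females (-0.24, adjusted p = 0.0149) and 0.25 in males (-0.25, adjusted p = 0.0115), against -0.19 in each sex with the arrays kept. RpL28 was lower at P6 as well, by 0.22 in females (-0.22, adjusted p = 0.0104) and 0.24 in males (-0.24, adjusted p = 0.00785). With all arrays kept and a trend of variance on level, RpS12 also passed in females (adjusted p = 0.0218) and males (adjusted p = 0.0205). In that fit RpL28 passed in both sexes (adjusted p = 0.0107 and 0.0149), and RpL34a in males (adjusted p = 0.0288). The third assembly-related member, RpL7-like, kin of human RPL7L1, passed in no comparison with or without these arrays.

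Of the bright members, RpL29, RpL3, RpL41, RpL28 and RpL39 passed, all of them large-subunit genes with small differences. RpL29 was lower at P6 than at L3, by 0.32 in each sex (-0.32, SE 0.11, adjusted p = 0.0223 in females and 0.0214 in males). Its female values were 12.96, 13.19, 13.06 and 13.09 at L3, 12.79, 12.76, 12.59 and 12.89 at P6, and 12.89, 13.03, 13.01 and 12.77 at P20. Its male values were 12.89, 13.15, 13.10 and 13.11 at L3, 12.76, 12.74, 12.59 and 12.87 at P6, and 12.97, 12.93, 13.06 and 12.62 at P20. All P6 arrays were below the L3 arrays of their sex, and the P20 arrays overlapped both. The female call was lost without L3 replicate 2 or P6 replicate 3 (adjusted p up to 0.0845) and the male call without L3 replicate 2, 3 or 4 or P6 replicate 3 (up to 0.0773). The female call was also lost with arrays centred on their medians (-0.40, adjusted p = 0.0516), and the male one with only the 2 groups compared (-0.32, adjusted p = 0.0664). The differences were -0.36 (adjusted p = 0.0112) and -0.38 (adjusted p = 0.00754) without both L3 replicate 1 arrays. RpL3, whose protein lies near the peptidyl transferase centre, was lower at P20 than at L3, with a difference of -0.31 ± 0.08 in females (adjusted p = 0.00316) and -0.29 ± 0.08 in males (adjusted p = 0.00577). It had 13.08, 13.10, 13.01 and 13.19 in P20 females, against 13.34, 13.37, 13.44 and 13.48 in L3 females. It had 13.07, 13.09, 13.03 and 13.25 in P20 males, against 13.26, 13.45, 13.45 and 13.44 in L3 males. The groups did not overlap in either sex, as was so for 30.4% of all genes in females and 29.3% in males. The RpL3 differences were -0.34 in each sex (adjusted p = 0.00133 and 0.00125) without both L3 replicate 1 arrays. Both RpL3 calls were lost when its probe sets were averaged (-0.24, adjusted p = 0.254 in females; -0.21, adjusted p = 0.311 in males) and with only the 2 groups compared (adjusted p = 0.054 and 0.0777).

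RpL41, which encodes a very short protein, and RpL28 were also lower at P20 than at L3 in both sexes. The RpL41 difference was -0.26 in females (adjusted p = 0.0198) and -0.29 in males (adjusted p = 0.0116), and the RpL28 difference was -0.21 in females (adjusted p = 0.0347) and -0.22 in males (adjusted p = 0.0244). The RpL28 call was lost without L3 replicate 2, 3 or 4 in either sex or P20 female replicate 1, 2 or 3 (adjusted p up to 0.092), and the female RpL41 call without L3 replicate 2 or P20 replicate 3 (up to 0.0572). With only the 2 groups compared neither gene passed in either sex, with adjusted p of 0.18 and 0.159 for RpL28 and 0.094 and 0.056 for RpL41. Both passed in both sexes without the 2 L3 replicate 1 arrays, with -0.25 and -0.28 for RpL28 and -0.25 and -0.29 for RpL41. RpL41 had 13.53 to 13.68 in P20 females, against 13.79 to 13.94 in L3 females, and 13.55 to 13.65 in P20 males, against 13.83 to 13.91 in L3 males. RpL39, at the exit tunnel of the large subunit, had 13.27, 13.33, 13.32 and 13.60 in P20 females, against 13.56, 13.67, 13.60 and 13.61 in P6 females. Its P20 minus P6 difference was -0.23 (adjusted p = 0.0455) and its P20 minus L3 difference -0.21 (adjusted p = 0.0466) in females, while in males they were -0.16 (adjusted p = 0.184) and -0.17 (adjusted p = 0.106). The 2 female calls of RpL39 were lost in 21 and 23 of 33 alternatives, with any array of the groups compared left out except P20 replicate 4. The female P20 minus L3 difference of RpL39 was -0.21 without both L3 replicate 1 arrays (adjusted p = 0.0664). With each array centred on its median, these differences from L3 to P20 hardly changed in size but did not pass. RpL3 then had -0.31 in females (adjusted p = 0.0514) and -0.30 in males (adjusted p = 0.0587), and RpL41 had -0.26 (adjusted p = 0.0962) and -0.30 (adjusted p = 0.0541). RpL28 had -0.20 (adjusted p = 0.25) and -0.23 (adjusted p = 0.178), and RpL39 had -0.21 in females (adjusted p = 0.155).

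The stalk genes RpLP0, RpLP1 and RpLP2, whose proteins recruit the elongation factors, passed in no comparison. With a trend of variance on level, RpLP0 passed from P6 to P20 in both sexes (adjusted p = 0.0351 in females and 0.0301 in males) and RpLP2 was lower at P20 than at L3 in males (-0.11, adjusted p = 0.0484). As fitted otherwise, RpLP0 came closest, with a P20 minus P6 difference of -0.19 ± 0.08 in females (adjusted p = 0.103) and -0.19 ± 0.08 in males (adjusted p = 0.0901). It had 12.82, 12.79, 12.80 and 13.08 in P20 females, against 13.10, 13.07, 13.10 and 12.96 in P6 females. In males it had 12.80, 12.75, 12.89 and 12.93 at P20, against 13.04, 13.06, 13.06 and 12.98 at P6. These did not overlap, as was so for 29.8% of all genes. RpS27A and RpL40, both made as fusions to ubiquitin, had ranges of group means of 0.11 and 0.13, and neither passed except RpL40 in males with that trend, lower than at L3 by 0.13 at P6 (-0.13, adjusted p = 0.0286) and at P20 (-0.13, adjusted p = 0.0234). Rack1, a protein of the small subunit that the symbol rule leaves out, passed in no comparison either, with a smallest adjusted p of 0.179.

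Further probe sets of the same genes did not all behave alike. RpS29 has 3, of which the 2 with means of 13.52 and 13.41 differed by at most 0.10 in size between stages, while the one with a mean of 5.82 was lower at P20 than at P6, by -1.10 in females (adjusted p = 0.0107) and -1.17 in males (adjusted p = 0.00697). RpL3 has 2 further probe sets with means of 9.03 and 6.80. The first was higher at P6 than at L3 by 0.68 in males (adjusted p = 0.0478), where the probe set used gave -0.14. From P6 to P20 the first was lower in males (-0.744, adjusted p = 0.038) and did not pass in females (-0.581, adjusted p = 0.11). The second was lower in females (-0.635, adjusted p = 0.047) and males (-0.647, adjusted p = 0.0441). The RpL3 probe set used gave -0.169 and -0.15 there and did not pass. RpS30, made as a fusion to a ubiquitin-like protein, has a second probe set with P20 minus P6 differences of -0.41 in females (adjusted p = 0.0164) and -0.37 in males (adjusted p = 0.0286), and the one used passed in no comparison. RpS7 has a second probe set with a mean of 3.51. In males this probe set was lower than at L3 at P6 (-0.485, adjusted p = 0.0429) and at P20 (-0.89, adjusted p = 0.000571). The RpS7 probe set used gave -0.066 and -0.045 there. The dimmer probe sets of RpS29, RpL3, RpS30 and RpS7 all had lower means at P20 than at P6 in both sexes, not all past the threshold. Of the 41 probe sets used, 14 carry the manufacturer's suffix for probes shared among transcripts, which may belong to different genes, RpL3, RpL28, RpL29 and RpL41 among them.

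The sex comparisons ask which genes distinguish female from male discs, and the members' counts in them were close to the share over all genes. No member passed at L3, where 0.985% of all genes did, and 0 of 41 were under an unadjusted p of 0.05 in limma. At P6, 1 of 41 passed (2.44%, all genes 4.83%), and at P20 none did (all genes 2.35%), with 2 members under an unadjusted p of 0.05. Median female minus male differences were 0.00 at L3, 0.00 at P6 and 0.01 at P20, and those of all genes were 0.01, -0.01 and 0.00. The 95% intervals of the 32 bright members reached from -0.31 to 0.31 at L3, from -0.42 to 0.24 at P6 and from -0.37 to 0.32 at P20. RpL17, RpS28b and RpL37-1 are X-linked, and of these RpL37-1 had the largest female minus male difference, 0.16 at P20 (adjusted p = 0.524).

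The member that passed at P6 was RpS28-like, lower in females, with the 4 female arrays (4.05 to 4.31) below the 4 male arrays (4.37 to 5.42). The sexes did not overlap there for 10.9% of all genes. The female minus male difference of RpS28-like was -0.72 ± 0.16 (adjusted p = 0.00773). It did not pass with each array centred on its median (-0.63, adjusted p = 0.0632) or with only the 2 groups compared (-0.72, adjusted p = 0.126). The change of the sex difference from L3 to P6 was -0.96 ± 0.23 (adjusted p = 0.0455 for this contrast, where 1 of 41 members and 0.81% of all genes passed). That call was lost in 23 of 32 alternatives, with adjusted p up to 0.169, and without both L3 replicate 1 arrays it was -1.02 (adjusted p = 0.0597). From P6 to P20 no member's sex difference changed past the threshold (all genes 1.15%; 1 member under an unadjusted p of 0.05), and in the test over all 3 stages no member passed (smallest adjusted p = 0.076, RpS28-like; 2 members under an unadjusted p of 0.05; 1.65% of all genes passed). Averaged over the stages, 1 of 41 members passed (2.44%, all genes 6.47%), RpL10Aa, a copy of RpL10Ab, the gene of the protein of the L1 stalk.

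RpL10Aa was lower in females by 0.61 on average (-0.61 ± 0.17, adjusted p = 0.0335), and its male values were spread widely. All RpL10Aa values lay below the array medians of 6.50 to 6.96 as well, with their height over background unknown. Female discs had 3.08, 3.38, 3.34 and 3.71 at L3, 3.39, 3.48, 3.35 and 3.37 at P6, and 3.85, 3.46, 3.33 and 3.33 at P20. Male discs had 3.29, 4.13, 3.35 and 3.33 at L3, 3.98, 4.60, 5.58 and 3.46 at P6, while P20 discs had 3.99, 4.15, 4.54 and 3.96. The female minus male difference was -1.01 ± 0.30 at P6 (adjusted p = 0.0534), and in males P6 minus L3 was 0.88 ± 0.30 (adjusted p = 0.0249). That male stage difference was 0.49 without P6 male replicate 3 (adjusted p = 0.127) and was also lost without P6 male replicate 2 or L3 male replicate 1, 3 or 4. It was 0.80 without both L3 replicate 1 arrays (adjusted p = 0.0551) and did not pass with only the 2 groups compared (adjusted p = 0.162). The average sex difference no longer passed with centred arrays (-0.55, adjusted p = 0.102) or without both L3 replicate 1 arrays (-0.60, adjusted p = 0.053), and 12 of the 24 arrays, left out singly, ended it (up to 0.0657). The copy RpL10Ab, a bright member, passed in no comparison. It was lower at P6 than at L3 in males without both L3 replicate 1 arrays (-0.25, adjusted p = 0.0306) and with a trend of variance on level (-0.21, adjusted p = 0.0214).

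The summed markers of testis and germline moved with RpL10Aa among the male arrays. The 18 of 19 such genes that were measured summed to 69.74, 70.03, 71.55 and 77.45 log2 units in P6 females and to 93.41, 103.01, 110.90 and 84.91 in P6 males. At P20 the sums were 67.23 to 69.92 in females and 88.95, 88.01, 100.83 and 81.45 in males. At L3 they were 67.03 to 81.14 in females and 69.33, 99.28, 70.07 and 77.22 in males. The male arrays with the highest sums at each stage, L3 replicate 2, P6 replicate 3 and P20 replicate 3, also had the highest RpL10Aa of their group. They had the highest RpL37-2 as well, a copy of RpL37-1, with 6.53, 7.10 and 7.01 against 5.57 to 6.26 on the other male arrays. RpL37-2 passed in no comparison. RpS28-like in P6 males had 4.37 and 4.67 in replicates 4 and 1, the arrays with the lower sums, and 5.11 and 5.42 in replicates 3 and 2, those with the higher sums, replicate 2 being the highest. At L3 it had 4.19 in male replicate 2, within the range of the other male arrays. Past the threshold, 6 of the 18 markers (33.3%) were lower in females at P6 and none higher (all genes 3.72% and 1.11%). The sperm chromatin gene Mst77F had 3.33 to 5.40 in P6 females and reached 10.21 in P6 male replicate 3. The meiotic arrest genes can and aly stayed at group means of 2.91 to 3.23, and vas at 3.56 to 3.95. In males bam was lower at P6 than at L3 (-1.40, adjusted p = 2.97e-05), so the sum does not stand for every marker in it. The part of these tissues in the RpL10Aa, RpL37-2 and RpS28-like values was not tested.

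**Figure D4:**
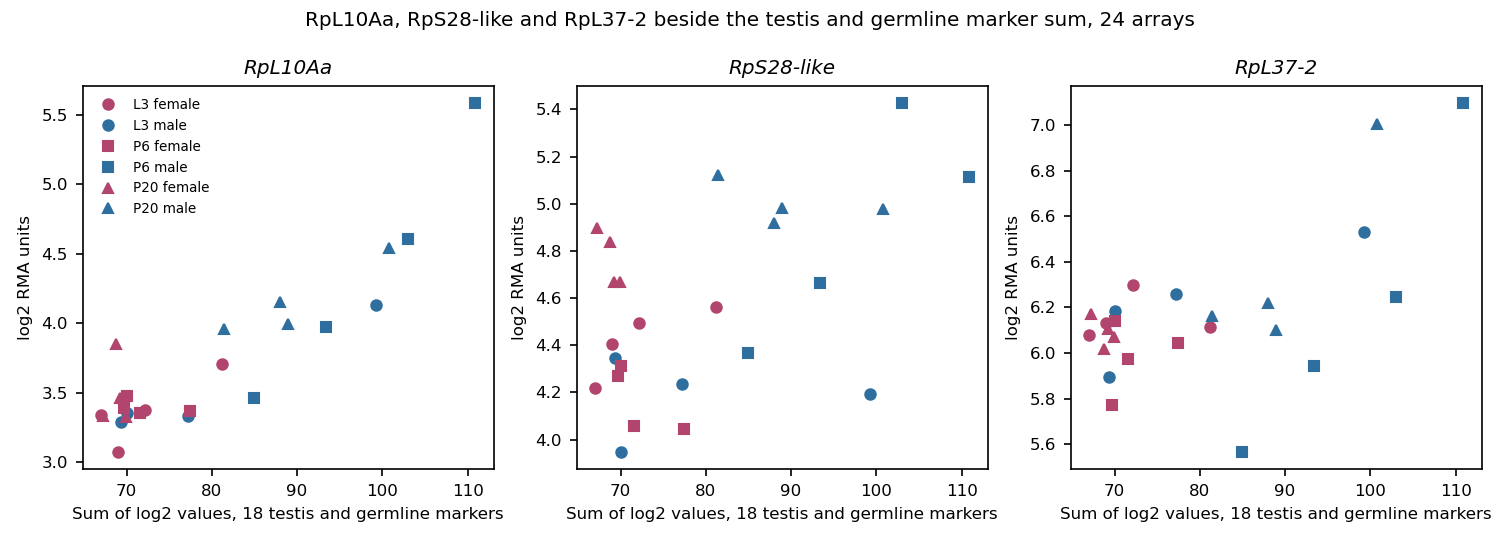
RpL10Aa, RpS28-like and RpL37-2 (y axes, log2 RMA units) against the summed log2 values of 18 testis and germline markers (x axis) on the 24 arrays, female in red and male in blue, by stage. The P6 male array with the highest sum, 110.90, has the highest RpL10Aa, 5.58, and the highest RpL37-2, 7.10, while RpS28-like is also high in P20 females with low sums.

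Several other lists of genes of protein synthesis were called more often than all genes in some of the stage comparisons. Of 33 ribosome biogenesis genes, 22 fell and 1 rose from P6 to P20 in females (69.7%, all genes 26.3%) and 26 fell and 1 rose in males (81.8%, all genes 25.7%), with medians of -0.58 and -0.78. Among them were Polr1A, the large subunit of RNA polymerase I (-0.69 in females, adjusted p = 2.42e-05; -0.90 in males, adjusted p = 5.99e-07), and mbm (-0.98, adjusted p = 3.14e-05; -1.15, adjusted p = 4.48e-06). From L3 to P6 the same list had 3 higher and 11 lower in females (42.4%, all genes 35.6%) and 5 higher and 3 lower in males (24.2%, all genes 34.8%). Of 69 mitochondrial ribosomal protein genes, 44 fell and 1 rose from L3 to P20 in each sex (65.2%, all genes 39.9% in females and 38.1% in males), with medians of -0.57 in females and -0.48 in males, mRpL36 (-2.02 and -1.79) among them. Of 18 tRNA synthetase genes, 13 fell in females (72.2%) and 11 in males (61.1%) from L3 to P20, and none rose. At P6 none of these 3 lists had a gene that passed between the sexes. Of 40 proteasome genes, 14 fell and 1 rose from L3 to P20 in females (37.5%), and 11 fell and 1 rose in males (30%), shares below those of all genes. From L3 to P6 in females 7.5% of the proteasome genes passed.

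Translation factors passed in both directions, at shares near those of all genes. Of 47 such genes, 12 rose and 7 fell from L3 to P6 in females (40.4%, all genes 35.6%) and 15 rose and 5 fell in males (42.6%, all genes 34.8%). The elongation factor gene eEF1alpha2 rose by 5.37 in females (adjusted p = 1.79e-13) and 3.90 in males (adjusted p = 5.28e-11). The initiation factor gene eIF6, whose protein keeps the large subunit from joining the small one, was lower at P20 than at L3, by -1.29 in females (adjusted p = 2.61e-06) and -1.16 in males (adjusted p = 1.07e-05). Of 16 genes of growth, TOR and Myc signalling, 6 fell and 1 rose from L3 to P6 in females (43.8%), and 5 fell and 1 rose in males (37.5%).

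**Figure D5:**
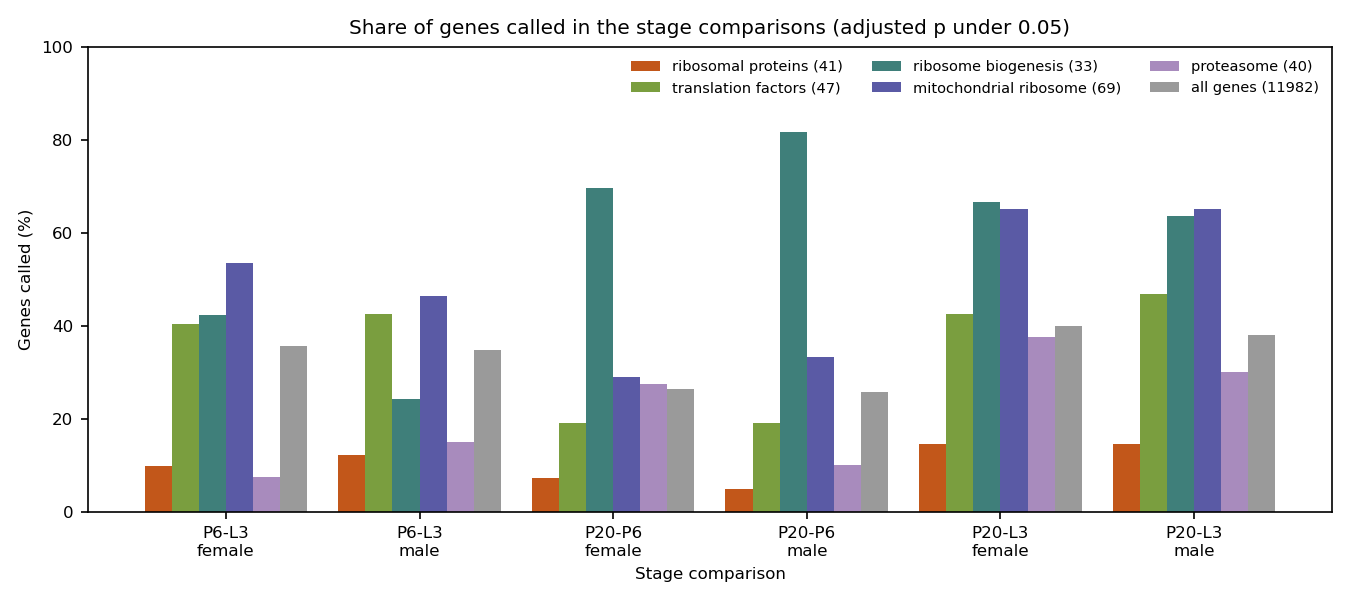
Share of genes with an adjusted p under 0.05 (y axis, percent) in 6 stage comparisons, for the 41 ribosomal protein genes, 4 accompanying lists and all 11982 genes. The ribosomal protein bars lie between 4.88% and 14.6%, below those of all genes (25.7% to 39.9%) in every comparison, and the ribosome biogenesis bars reach 81.8% from P6 to P20 in males.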

How the data were processed

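RNA from dissected genital discs was measured on Affymetrix arrays, 1 array for each of the 24 samples, with 20 ng of total RNA per labelling, per the labels' protocols. The deposited values are log2 intensities per probe set that the authors summarised with RMA, per the submitters' processing notes; its version, settings and any detection calls are not given in the sources used here, so signal over background is unknown. They were used as deposited and had the unit the tests assumed. No filter on low values was applied. Of 18952 probe sets, 13647 had 1 gene in the platform annotation; the 183 controls and the probe sets with several genes or none were left out. For each gene the probe set with the highest mean was used, which left 11982 genes, with 47 probe sets for the 41 members. All 41 symbols matched a RefSeq table of Release 6, used for chromosomes.

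All tests ran in limma 3.58.1 under R 4.3.3 (lmFit and eBayes, 1 mean per group over all 24 arrays, 18 residual and 3.41 prior degrees of freedom), two-sided, with Benjamini-Hochberg adjustment over all genes, a threshold of 0.05, and 95% intervals from the same fit. Differences are later minus earlier stage or female minus male; the interaction is a moderated F test. An error after ± is a standard error. Precision is limited by the 4 arrays per group. The scripts were tested on simulated data.

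The members and gene lists were chosen with earlier results of these data known. Named are the stalk genes, ubiquitin fusions, RpL41, every member with a copy, in each stage comparison the 4 largest non-overlapping changes in each direction, all members past the threshold in sex comparisons, the 4 widest and narrowest ranges, and up to 4 genes per list with the smallest p. RpL28, RpL39, RpL17, RpS7, RpS12, RpS29, RpS30 and the genes named beside the L3 replicate 1 arrays, with the marker genes, were chosen after their values were seen.

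Replicate numbers come from the sample titles. At P20, female and male arrays of the same number deviated together (r = 0.113, 0.421, 0.237 and 0.401). Each matched its own number best, so the numbers were taken to pair them. At L3 (0.072 to 0.679), at P6 (0.03 to 0.278) and between stages they were not. At L3, replicates 1 to 3 also matched their own numbers best (0.679, 0.364 and 0.312), so a pairing there is not excluded. The main tests used no pairing, which entered only as an alternative. Alternatives were median centring, robust eBayes with a trend of variance on level, dropping genes with every group mean under 6, averaging a gene's probe sets, only the groups compared, replicate blocks, a 1.5-fold minimum and leaving out each array; leaving out both L3 replicate 1 arrays and testing every probe set apart were added after the data were seen.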

Additional observations from a re-analysis of the deposited data

Results flagged for a closer look

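In 78 groups of 4 arrays, those of the 13 members tested, 7 held an array far from the other 3 by Dixon's criterion. Chance gives such an array in about 1 of 20 groups. The 7 cannot be set against that rate, because the 13 members were chosen with their values known. They include RpL37-2 and RpL34a, which passed in no comparison of the main tests and were described above for arrays that stood apart. RpLP0-like had 11.42 in L3 female replicate 1 (the others 9.30 to 9.58) and 11.38 in L3 male replicate 1 (8.95 to 9.31). RpL28 had 13.32 (13.54 to 13.57) and RpL3 had 13.26 (13.44 to 13.45) in L3 male replicate 1. RpL10Aa had 4.13 in L3 male replicate 2 (3.29 to 3.35), which also had the highest testis marker sum at L3. RpL37-2 had 7.01 (6.10 to 6.22) and RpL34a had 12.88 (12.62 to 12.66) in P20 male replicate 3.

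The female minus male difference of RpS28-like changed from L3 to P6, by -0.96 (limma adjusted p = 0.0455 for this contrast; 0.00382 to 0.169 over the alternatives), while its test over all 3 stages had an adjusted p of 0.076.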

How the results depend on the processing

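Of 951 re-estimates of the 29 differences that passed for single members, 803 kept their direction and passed, 148 kept their direction but no longer passed, and 0 reversed; 10 differences passed in every alternative run for them, all of RpL22-like, RpS19b or RpS28-like. Counts of members that passed moved more. Median centring gave 3 in males from L3 to P6 (against 5), where 35.9% of all genes passed. From L3 to P20 it gave 2 in females and 3 in males (against 6 each), where 36.3% and 34.4% of all genes passed. It gave 0 between the sexes at P6 (all genes 3.62%) and 0 on average over the stages (all genes 5.31%). Centring shifted the median of all genes by up to 0.135. The mean-variance trend gave 7 in females and 12 in males from L3 to P6, where 35.8% and 35% of all genes passed. It gave 5 in females from P6 to P20 (all genes 26.6%) and 10 in males from L3 to P20 (all genes 38.4%). Between the sexes at P6 it gave 2 (all genes 4.82%). It added 9 members that passed in no comparison of the main tests. Of these, RpL10Ab, RpL32, RpL34a, RpS12 and RpS7 also passed without both L3 replicate 1 arrays. Averaging the probe sets of a gene gave 5 in females and 4 in males from P6 to P20. With only the groups compared, 1 passed in males from L3 to P6, 2 in females and 3 in males from L3 to P20, and 0 between the sexes at P6. A 1.5-fold minimum left 3 in males from L3 to P6, and 2 in females and 3 in males from L3 to P20. Leaving out dim genes left 0 between the sexes at P6 and 0 on average, since it removes RpS28-like and RpL10Aa. Without both L3 replicate 1 arrays 10 passed in each sex from L3 to P6, and 0 in the average over the stages. Leaving out 1 array at a time gave 1 to 8 in females and 3 to 10 in males from L3 to P6, 2 to 4 in females and 2 in males from P6 to P20, 3 to 7 in females and 5 to 9 in males from L3 to P20, 0 between the sexes at L3, 1 to 2 at P6, 0 at P20, 0 to 2 on average and 0 to 1 in the interaction. The causes were not tested beyond these settings.

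With a replicate block for each number and stage, the pairing gave 2 members between the sexes at P6 and 1 in the interaction. At P20, where the numbers were taken to pair the arrays, it gave 0 as without it. The block by number alone changed no count of members by over 1.5 times.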
